A study of Mus musculus with 6 samples.

Results

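Of the 10 genes of prostaglandin signalling named for this description, 9 could be measured on the arrays: 4 receptors (Ptger2, Ptger3, Ptger4 and Ptgfr), both cyclooxygenases (Ptgs1 and Ptgs2), 2 terminal synthases (Ptges and Ptgds) and 1 breakdown enzyme (Hpgd). They stand among 17305 genes that the array's RefSeq accessions name. No probe carries a RefSeq accession of Ptger1, so the prostaglandin E2 receptor EP1 was not analysed here. The group was chosen by function and by 1 measured value, the higher Ptger3 signal in Six2Cre Sall1 knockout kidneys. For that reason the Six2Cre differences of all members are given below as a description, with no test.

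The samples were embryonic kidneys at E14.5 from mice of a 129 and C57BL/6 hybrid background, 1 array each. The Six2Cre Sall1 knockouts took 2 arrays (replicates 7 and 9); in them floxed Sall1 was deleted by a Cre active in nephron progenitors. Their controls took another 2 (replicates 5 and 2). One array was a knockout titled CreER/flox (replicate 5), with deletion induced by tamoxifen 48 hours earlier, and 1 was its control titled wt/flox (replicate 2). The protocol names that allele Sall1CreER, and since the control title carries no CreER, the allele itself and the deletion it drives cannot be told apart. The line of each sample was read from its title. The labels do not give the Cre status of the Six2Cre controls, whether each array was a separate embryo, or how many kidneys were used, and the description of each of the 6 samples mentions tamoxifen. Sall1 encodes a zinc finger transcription factor of nephron progenitors. Its signal was 15.6% and 24.5% of the array's 75th percentile in Six2Cre knockouts, against 37.7% and 57.4% in Six2Cre controls, and 5.86% on the CreER knockout array against 40.2% on its control.

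Prostaglandins are lipid signals made from arachidonic acid, which phospholipases release from membranes. Cyclooxygenases convert it to prostaglandin H2, terminal synthases turn that into prostaglandins such as E2 and D2, and the products act nearby on G protein-coupled receptors until they are inactivated. In the adult kidney, prostaglandin E2 regulates blood flow, renin release and the handling of salt and water, and its receptor EP3 is known in the thick ascending limb and the collecting duct. Mice without Ptgs2 have defects of kidney maturation after birth.

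Array quality differed little except for 1 array. On the CreER knockout array 71.6% of probes were well above background, against 79.9% to 82.9% on the other 5, and the SD of negative control spots was 4.01 on that array and between 1.46 and 1.61 on the others. Six2Cre knockout 7 and control 5 shared slide 1, and the other 4 arrays shared slide 2, so each slide held a Six2Cre pair. The summed signal of skeletal muscle markers on Six2Cre control 2 was 9.24-fold above that of the next highest array, and the slide 1 pair does not contain that array. Levels are given as the percentage of the array's 75th percentile of signal, and differences as log2 values, knockout minus control. Each SE is the moderated one of the limma fit described below. Its estimate of spread draws partly on all features and is not that of the gene's own arrays alone. Levels are compared between arrays within a probe and never between genes. In whole kidneys, fewer cells of a type and less RNA per cell cannot be told apart.

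The promoters of Ptger3 and Ptgfr are shown because these 2 receptor genes were the only members at least 2-fold higher in both Six2Cre pairs. Each is the 250 bases before the transcript start in RefSeq (GRCm38.p6), with the GC box GGGCGG, searched on both strands, in capitals (CCGCCC marks the reverse strand). The Ptger3 window is chr3:157566626-157566875, plus strand, and the Ptgfr window is chr3:151837529-151837778, minus strand.
Ptger3: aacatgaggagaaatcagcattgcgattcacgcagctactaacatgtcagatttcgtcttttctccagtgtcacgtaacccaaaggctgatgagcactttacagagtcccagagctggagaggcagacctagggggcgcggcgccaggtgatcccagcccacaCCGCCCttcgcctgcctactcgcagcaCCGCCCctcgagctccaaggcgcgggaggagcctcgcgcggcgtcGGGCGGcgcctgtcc
Ptgfr: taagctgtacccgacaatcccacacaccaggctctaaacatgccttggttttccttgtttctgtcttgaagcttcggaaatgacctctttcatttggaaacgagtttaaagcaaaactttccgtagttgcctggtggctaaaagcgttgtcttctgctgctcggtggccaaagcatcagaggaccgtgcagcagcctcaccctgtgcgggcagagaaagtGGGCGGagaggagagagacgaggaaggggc
The Ptger3 window held 3 GC boxes, at 87 to 82, 60 to 55 and 15 to 10 bases before the start, and had a GC content of 62.0%. The Ptgfr window held 1, at 30 to 25 bases before the start, with a GC content of 52.0%, against a median of 52.4% over 32817 promoter windows. Of those windows, 32.7% held a GC box, and 6 of the 9 measured members did. Neither window held the TATA box TATAAA (12.4% of all windows), the CCAAT box CCAAT (33.8%) or the cyclic AMP response element TGACGTCA (1.55%). No measured member held TATAAA or TGACGTCA in its window, and CCAAT stood in the windows of Ptger2 and Ptger4. These searches concern the letters of 250 bases alone and say nothing of which factors bind there.

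Ptger3 encodes EP3, the prostaglandin E2 receptor that lowers cyclic AMP through Gi. Its signal was 83.1% and 73.1% in Six2Cre knockouts 7 and 9, against 17.2% and 13.6% in Six2Cre controls 5 and 2. The groups did not overlap, and both knockout arrays lay far above each control. The difference was 5.09-fold (log2 2.35, SE 0.27, n = 2 each). Taken by slide, it was 2.28 for knockout 7 minus control 5 and 2.42 for knockout 9 minus control 2. A second Ptger3 probe read 9.83% and 9.31% in the knockouts, against 1.88% and 1.48% in the controls, which is 5.73-fold. The gap between arrays of 1 group was small: 1.14-fold between the knockouts and 1.26-fold between the controls for the brighter probe.

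In the CreER line, whose arrays the choice of members did not use, Ptger3 was not higher. Its signal was 10.2% on the CreER knockout array, against 11.8% on the CreER control array, a difference of -0.20 for the brighter probe that is no larger than the gap of 0.33 between the Six2Cre controls. The second probe read 0.976% on the CreER knockout array, where it was not well above background, against 1.45% on the CreER control array (at least 1.27-fold lower, the bound being the dimmest signal well above background on that array, 1.14%). Across the 6 arrays, Ptger3 was thus high on the 2 Six2Cre knockout arrays and between 10.2% and 17.2% on the other 4.

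Ptgfr encodes FP, the receptor of prostaglandin F2alpha, which signals through Gq and calcium. Its signal was 86.9% and 64.0% in Six2Cre knockouts 7 and 9, against 28.7% and 14.4% in Six2Cre controls 5 and 2. The groups did not overlap, although the controls themselves differed 1.99-fold. The difference was 3.67-fold (log2 1.88, SE 0.43, n = 2 each), made of 1.60 on slide 1 and 2.15 on slide 2. On the CreER knockout array the signal was 6.47%, against 20.4% on the CreER control array, which is 3.16-fold lower (log2 -1.66). The CreER knockout array was the lowest of all 6 for Ptgfr and the Six2Cre knockouts were the highest. That array's Ptgfr signal was well above background; its noisier negative controls are given above, and their part in the value was not tested.

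**Figure D1:**
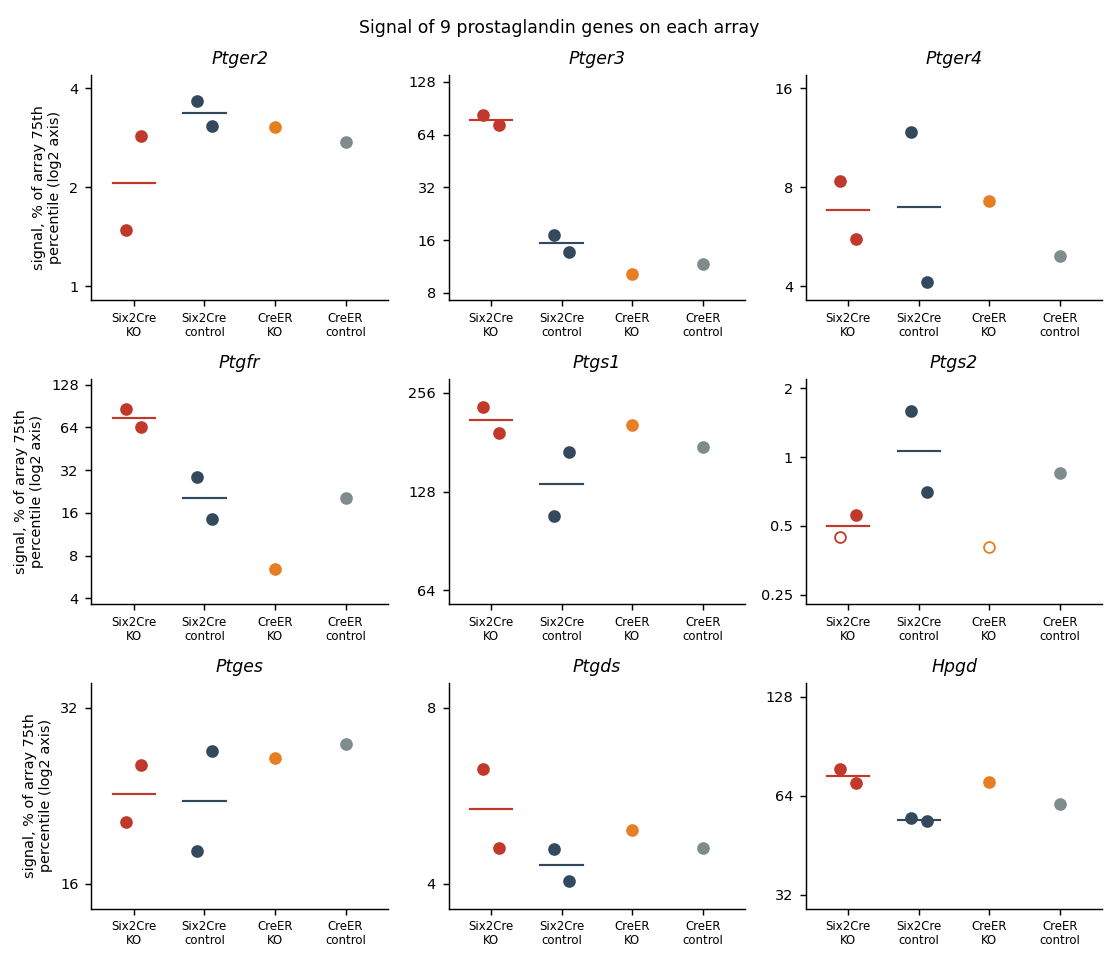
Signal of each measured member on the 6 arrays, as a percentage of the array's 75th percentile on a log2 axis; points are arrays, open points were not well above background, and bars are the geometric means of the 2 Six2Cre arrays of a group. Ptger3 and Ptgfr lie at 64.0% to 86.9% on the Six2Cre knockout arrays and at 28.7% or less elsewhere.

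EP2 and EP4, the receptors that raise cyclic AMP through Gs, had slide pairs that differed in size or in sign. Ptger2 (EP2) had a signal of 1.48% and 2.87% in Six2Cre knockouts, against 3.66% and 3.08% in controls. Both knockouts lay below both controls, knockout 7 far more than knockout 9, so that the mean difference of -0.70 (SE 0.40) was made of -1.31 on slide 1 and -0.10 on slide 2. On the CreER arrays it was 3.05% in the knockout, against 2.75% in the control (0.15). Ptger4 (EP4) read 8.39% and 5.57% in Six2Cre knockouts, against 11.8% and 4.12% in controls, with both knockouts between the 2 controls. Its mean difference was -0.03 (SE 0.58) and its pairs had opposite signs, -0.49 on slide 1 and 0.44 on slide 2. The CreER knockout array gave 7.25% for Ptger4, against 4.94% on the control (0.55), less than the gap of 1.52 between the Six2Cre controls.

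Of the cyclooxygenases, Ptgs1 encodes COX-1, which is made in many cells without a stimulus. It read 232% and 193% in Six2Cre knockouts, against 108% and 169% in Six2Cre controls, and 204% on the CreER knockout array against 175% on the CreER control. Control 5 was the low array and the other 5 lay between 169% and 232%. The Six2Cre difference of 0.65 (SE 0.33) came mostly from the slide 1 pair (2.15-fold, against 1.14-fold on slide 2). Ptgs2 encodes the inducible COX-2. Its signal was 0.447% and 0.557% in Six2Cre knockouts, against 1.60% and 0.706% in controls. Of these 4 arrays, knockout 7 was the one not well above background. The Ptgs2 probe was printed as 10 spots, which ranged from 0.285% to 0.549% on knockout 7 and from 0.375% to 0.798% on knockout 9, against 1.38% to 1.78% on control 5 and 0.611% to 0.828% on control 2. The spots of knockout 9 thus overlapped those of its slide partner, control 2, while those of knockout 7 lay below all spots of control 5. The slide 1 pair was 3.58-fold lower in the knockout at the measured values. This fold is not a bound, since knockout 7 was not well above background. Its signal was close to the dimmest signal well above background on that array (0.414%). The slide 2 pair was 1.27-fold lower. With knockout 7 at its measured value the mean difference was -1.09 (SE 0.46). With normexp background correction it was -0.26, but that setting added an offset of 50 to every signal. Such an offset draws the difference of a probe this dim toward 0, so the value of -0.26 is no check on Ptgs2. On the CreER knockout array Ptgs2 read 0.404%, below that array's dimmest signal well above background (1.14%), against 0.852% on the CreER control array, so no fold is given. A second Ptgs2 probe was well above background on control 5 and the CreER control alone. It read 0.485% and 0.202% in Six2Cre knockouts, against 1.34% and 0.248% in controls, and its groups overlapped.

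The terminal synthases had Six2Cre differences close to their SE or below it. Ptges, the inducible synthase of prostaglandin E2, read 20.4% and 25.5% in Six2Cre knockouts, against 18.2% and 27.0% in controls, and 26.2% on the CreER knockout array against 27.7% on its control. Its values followed the slide: the 2 arrays of slide 1 were the lowest, in knockout and control alike. The Six2Cre difference was 0.04 (SE 0.32). Ptgds, a synthase of prostaglandin D2 that also carries lipids, read 6.29% and 4.603% in Six2Cre knockouts, against 4.59% and 4.05% in controls. The lower knockout and the higher control almost touched, and the difference was 0.32 (SE 0.29). The CreER knockout array read 4.94% for Ptgds, against 4.599% on the control.

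Hpgd encodes 15-hydroxyprostaglandin dehydrogenase, the enzyme that starts the inactivation of prostaglandins. It read 77.4% and 70.02% in Six2Cre knockouts, against 54.6% and 53.5% in controls. The groups did not overlap and the difference was small, 1.36-fold (log2 0.44, SE 0.24), with 0.50 on slide 1 and 0.39 on slide 2. The second Hpgd probe gave a like value (0.50), yet its groups overlapped: 57.5% and 39.4% in knockouts, against 40.2% and 28.0% in controls. On the CreER arrays the brighter probe read 70.5% in the knockout and 60.5% in the control (0.22), while the second read 31.6% in the knockout and 31.8% in the control.

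**Figure D2:**
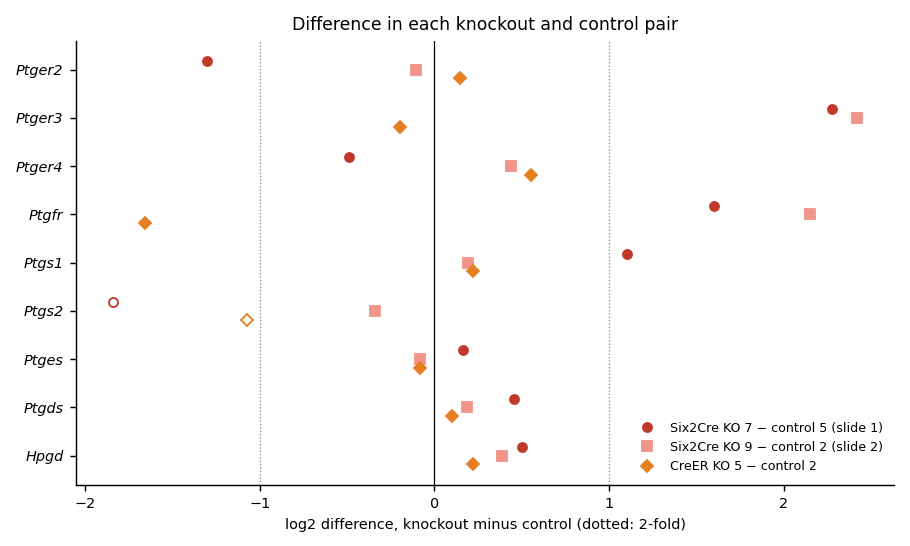
Log2 difference, knockout minus control, of each member in the slide 1 Six2Cre pair (circles), the slide 2 Six2Cre pair (squares) and the CreER pair (diamonds); dotted lines mark 2-fold and open symbols a knockout value not well above background (Ptgs2), drawn at its measured value. Ptger3 and Ptgfr exceed 2-fold in both Six2Cre pairs, and Ptgfr is -1.66 in the CreER pair.

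Counted over the 9 measured members, 6 had a Six2Cre difference above 0 and 3 below, with a median of 0.32, against 0.03 over the 26396 features that were well above background on at least 2 arrays. In 5 members (Ptger3, Ptgfr, Ptgs1, Ptgds and Hpgd) both knockouts lay above both controls, against 17.6% of all features, and in 2 (Ptger2 and Ptgs2) both lay below, against 12.6%. Ptger3 and Ptgfr were at least 2-fold higher in both slide pairs, which 1.55% of features were. Over all features, limma with Benjamini-Hochberg adjustment at 0.05 called 0%, with 1671 features at an unadjusted p under 0.05. With slide as a block and the eBayes options trend and robust, it called 1.22% higher and 1.27% lower. The members' own calls are not given. Nothing is read from these Six2Cre counts, since that comparison chose the members.

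In the CreER pair, 5 members were above 0 and 4 below, with a median of 0.10, against -0.01 over all features. Ptgs2 is counted below 0 at its measured value, which was not well above background in the knockout. Of the features well above background on at least 1 CreER array, 1.38% were at least 2-fold higher and 2.21% at least 2-fold lower on the knockout array. No member was 2-fold higher, and Ptgfr was past 2-fold lower. Ptgs2 was measured lower but has no fold there, for the reason given above. The share of 2.21% was counted at measured values and can include such features. By that same rule 2 of the 9 members, Ptgfr and Ptgs2, were at least 2-fold lower. With 1 array per group this comparison has no replicate check.

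The rest of the eicosanoid pathway was read from a list of 32 genes by function, of which 28 were kept. Limma called 0 higher and 0 lower among the 28 in the Six2Cre comparison (adjusted p from 0.773 to 1.00), and 1, Ptgr1, had an unadjusted p under 0.05. The same fit called 0 of all 26396 features, so the lack of calls cannot show that these genes were unchanged. Of the 28, 14 were above 0 and 14 below, with a median of -0.01. Ptgdr, a prostaglandin D2 receptor, was well above background on fewer than 2 arrays. The 4 genes of largest difference were all above 0. Pla2g4a, the cytosolic phospholipase that releases arachidonic acid, read 389% and 255% in Six2Cre knockouts, against 238% and 135% in controls. Its groups did not overlap and each knockout lay above its slide partner (1.76-fold, with 0.71 and 0.92 within the slides). The limma adjusted p of Pla2g4a was 0.986, 0.272 with the slide block alone, and 0.0350 with the slide block, trend and robust. Ptgr1 is a reductase that acts on prostaglandins already oxidised by the Hpgd product. It read 960% and 728% in knockouts, against 542% and 443% in controls (1.71-fold, with 0.82 and 0.72 within the slides). The limma adjusted p of Ptgr1 was 0.773, 0.282 with the slide block alone, and 0.0377 with the slide block, trend and robust. Alox5ap, the protein that presents arachidonic acid to 5-lipoxygenase in leukotriene synthesis, read 69.3% and 61.1% in knockouts, against 40.7% and 43.0% in controls (1.56-fold, limma adjusted p = 0.800). Pla2g10, a secreted phospholipase, was dim, with 1.099% and 1.18% in knockouts, against 0.904% and 0.459% in controls, the lower of which was not well above background (1.77-fold at the measured values, limma adjusted p = 0.965).

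By role, 3 of 4 phospholipases were above 0 (median 0.43), as were 5 of 7 other prostanoid synthases (0.07), 1 of 3 other prostanoid receptors (-0.03), 1 of 4 genes of transport and reduction (-0.08) and 4 of 10 genes of the leukotriene and lipoxygenase branch (-0.06). Ptgis, the prostacyclin synthase, was 0.57 (SE 0.26, limma adjusted p = 0.930) with 0.75 on slide 1 and 0.40 on slide 2. The receptors of prostacyclin (Ptgir, -0.27) and thromboxane (Tbxa2r, 0.23) differed by less. In the CreER pair Pla2g10 was at least 2.88-fold lower (0.849%, not well above background, on the knockout array against 3.29% on the control), Pla2g4a was 0.33, Ptgr1 0.07, Alox5ap 0.16 and Ptgis -0.07.

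**Figure D3:**
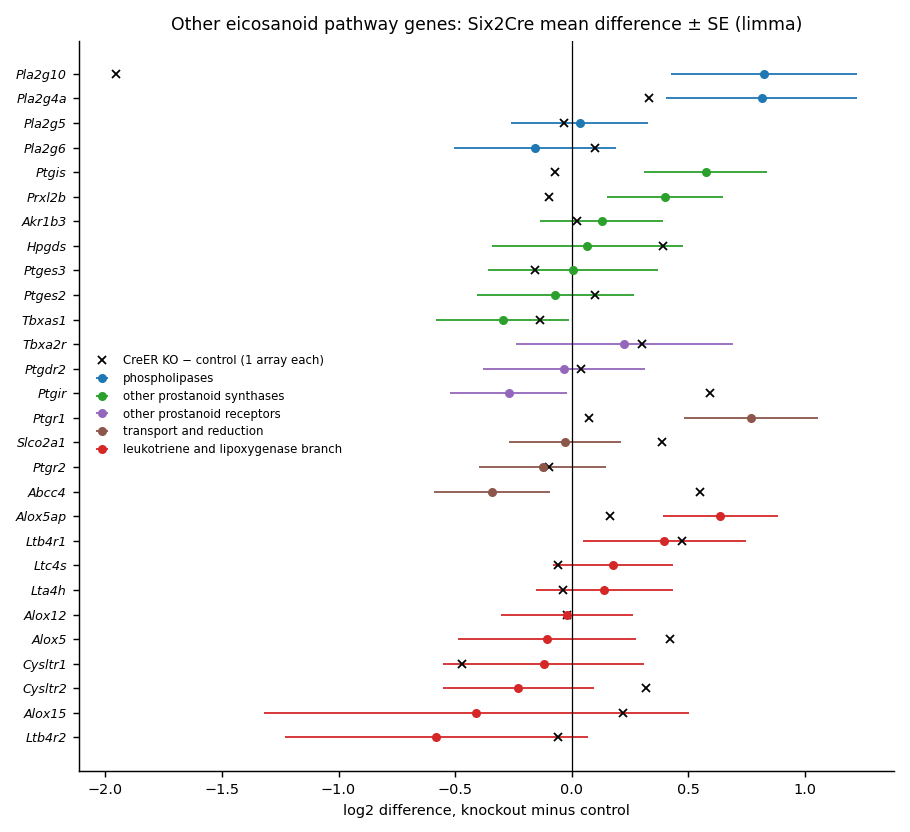
Log2 difference, knockout minus control, of the 28 other eicosanoid pathway genes in the Six2Cre line (coloured points by role, with bars of 1 SE from limma, n = 2 arrays per group) and on the CreER arrays (crosses, 1 array per group; those of Pla2g10, Ltb4r2 and Cysltr2 have a knockout value not well above background and are drawn as measured). Pla2g10, Pla2g4a, Ptgr1 and Alox5ap have the largest Six2Cre values, between 0.64 and 0.82. None of the 28 passed the threshold in limma without slide block, trend and robust, where 0% of all features passed.

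The genes whose signal followed Ptger3 most closely over the 6 arrays, among 13767 other named genes well above background on all of them, were Srpx (Pearson r 0.995), Gbp9 (0.993), Pcdh19 (0.993), Gria1 (0.993) and Hnmt (0.991). These are descriptions over 6 points that share the 2 Six2Cre knockout arrays as their high values. Gria1, a glutamate receptor subunit, read 97.8% and 99.9% in Six2Cre knockouts, against 28.3% and 25.4% in controls, and 16.4% on the CreER knockout array against 23.5% on its control. Hnmt, the enzyme that methylates histamine, read 23.9% and 17.1% in Six2Cre knockouts, against 6.80% and 6.04% in controls, and 4.51% on the CreER knockout array against 4.54% on its control. Ptgfr had an r of 0.918 with Ptger3 and stood at place 322.

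Markers of several cell types stood apart in the same Six2Cre comparison, in which limma called none of them (0 of all features). All 8 stroma markers were higher, and their summed signal was 18209% and 15806% in Six2Cre knockouts, against 10950.0% and 9019% in controls. It was 8809% on the CreER knockout array and 7976% on the CreER control. All 7 measured macrophage markers were higher, with a summed signal of 316% and 389% in Six2Cre knockouts, against 202% and 245% in controls, and 334% on the CreER knockout array against 265% on its control. All 7 measured loop and distal tubule markers were lower, at 74.4% and 80.4% in Six2Cre knockouts, against 517% and 432% in controls, and 214% on the CreER knockout array against 372% on its control. All 8 nephron progenitor markers were lower too, at 1366% and 1369% in Six2Cre knockouts, against 3468% and 4111% in controls, and 2545% on the CreER knockout array against 4189% on its control. All 7 measured early nephron markers were lower as well, at 612% and 800.1% in Six2Cre knockouts, against 1459.7% and 1709% in controls. Their sum was 1192% on the CreER knockout array, against 1217.5% on its control. Of the proximal tubule markers, 7 of 8 were lower, at 259% and 278% summed over the list in Six2Cre knockouts, against 649% and 716% in controls. In the CreER pair this list did not fall: 5 of 8 were higher, and the sum was 679% in the knockout, against 639% in the control. The ureteric bud and collecting duct list had 3 of 8 markers higher (median -0.06), yet its summed signal was 7050.4% and 5786% in Six2Cre knockouts, against 4742% and 5362% in controls, and 5989% on the CreER knockout array against 5474% on its control. In that list 3 of 8 markers lay higher and 1 lower without overlap, against 17.6% and 12.6% of all features. Endothelium had 4 of 8 higher (median -0.07). All 8 skeletal muscle markers were lower in the mean of both pairs (median -1.91), with 0.43 on slide 1 and -4.33 on slide 2. Adrenal and gonad markers had 4 of 7 higher (median 0.08). Ccnd1, Cd68 and Insl3 of these lists had no probe by accession, and Slc12a3 was too dim to be kept. The part of these cell types in the Ptger3, Ptgfr, Ptgs1 and Hpgd values was not tested.

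**Figure D4:**
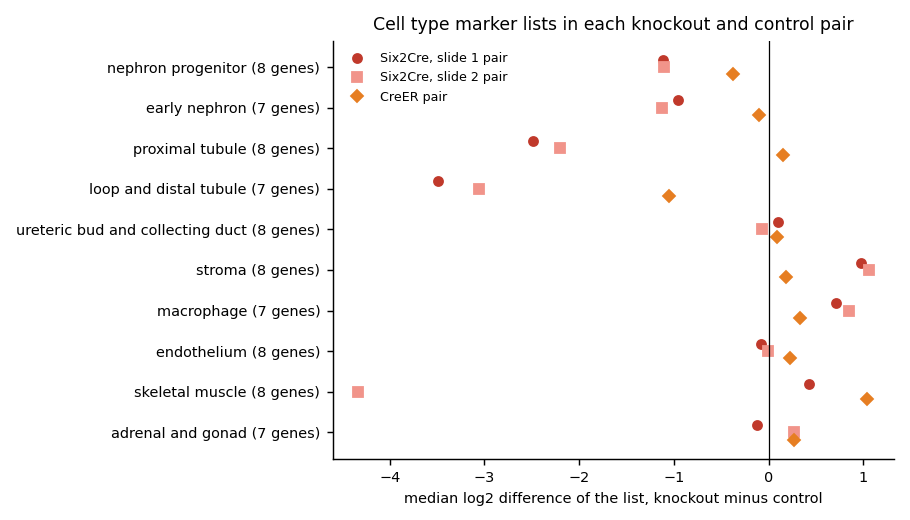
Median log2 difference, knockout minus control, of 10 cell type marker lists in the slide 1 Six2Cre pair (circles), the slide 2 Six2Cre pair (squares) and the CreER pair (diamonds). Stroma and macrophage medians are above 0 and nephron medians below 0 in both Six2Cre pairs, and skeletal muscle is -4.33 in the slide 2 pair alone.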

How the data were processed

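Total RNA was labelled with Cy3 and hybridised to 1-colour Agilent arrays, per the labels. Per the file headers, scans were extracted with Feature Extraction 10.5.1.1; the processed signal they deposited is a linear intensity, corrected for background within the array. The series table as deposited repeats that intensity (100% of single-spot probes within a relative tolerance of 0.001), with column medians of 217, 216, 234, 202, 186 and 217 in the order Six2Cre knockout 7, knockout 9, control 5, control 2, CreER knockout 5 and CreER control 2. Outlier-flagged spots were left out (40987 of 41174 probes remained on all arrays), and log2 values were set against each array's 75th percentile. Spots of a probe were averaged, and a gene was represented by its brightest probe. Probes were named through unversioned RefSeq accessions (25097 probes, 17305 genes). Features well above background on at least 2 arrays (26396) were fitted with limma 3.58.1 in R 4.3.3, 4 groups in 1 fit with 2 residual degrees of freedom, two-sided, Benjamini-Hochberg at 0.05. The fit was run on simulated data to check its estimates and the share of unchanged features at an unadjusted p under 0.05. No check was set on how many changed features it called. A multi-spot probe counted as well above background where at least 50% of its spots were.

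The members and lists were chosen with earlier results of these data known. The genes named are all members, the 4 other pathway genes of largest Six2Cre difference with any called, the 5 genes of highest correlation with Ptger3, and Sall1; Ptgdr, Ptgis, Ptgir and Tbxa2r were added for their roles after their values were seen. The p-values come from limma's moderated tests, which set a difference against a spread between arrays that is drawn partly from all features. Whether that spread is one between embryos is not known from the labels. The number of arrays limits the precision. The files used here hold no mean spot signal, so the normexp alternative used median signals and was chosen after seeing the data. Promoter windows were read from RefSeq (GRCm38.p6) for the 9 measured members. The arrays' design names the build mm9, and no probe position is printed here.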

Additional observations from a re-analysis of the deposited data

Results flagged for a closer look

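In 3 members every Six2Cre knockout array lay on 1 side of the controls and the CreER knockout array lay on the other side of its control. Over all features, 17.6% lay higher and 12.6% lower without overlap in the Six2Cre comparison. The CreER difference was above 0 for 12881 features and below 0 for 13515. The share of all features that met both conditions was not counted, so nothing is read from the number of members. Ptger3 was 2.35 in the Six2Cre line and -0.20 in the CreER pair. Ptgfr was 1.88 and -1.66. Ptger2 was -0.70 and 0.15. The difference between the lines was not tested, since the CreER pair has 1 array per group and the Six2Cre comparison chose the members. The CreER value of Ptger2 is smaller than the gap between the Six2Cre controls (0.25), and that of Ptgfr is larger (0.99). For Ptger3 it is smaller than the gap (0.33) for the brighter probe. The mean of both Ptger3 probes gave -0.38 in the CreER pair, and the second probe was at least 1.27-fold lower, next to a control gap of 1.27-fold.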

How the results depend on the processing

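Pairing by replicate was not possible because the Six2Cre knockout and control arrays share no replicate number in the labels. Pairing by slide was possible, and the fit with slide as a block called 0 features. Calls in the Six2Cre comparison were 0 higher and 0 lower in each of 11 of 12 alternatives, with leave-one-out ranges of 0 to 0. With slide as a block and the eBayes options trend and robust, there were 323 higher, 334 lower and 2 other pathway genes called (Pla2g4a and Ptgr1). The slide block alone called 0, so these calls appeared only once trend and robust were added. Trend and robust without the block were not run. Features at least 2-fold different in the CreER pair numbered 931. They numbered 157 with normexp, whose offset of 50 draws differences of dim features toward 0 by construction. There were 337 when well above background on all 6 arrays and 5041 without a filter, by construction over fewer and more dim features. The Six2Cre value of Ptger3 ran from 2.11 to 2.51 and that of Ptgfr from 1.38 (without Six2Cre control 2) to 2.37 (without Six2Cre control 5). Ptger4 and Ptges changed sign when 1 array was left out (from -0.78 to 0.73 and from -0.24 to 0.33), and Ptger4 was 0.01 with quantile normalization. Ptger2 was -0.23 without knockout 7 and -1.18 without knockout 9, Ptgs1 0.32 without control 5 and 0.97 without control 2, Ptgs2 -0.50 without control 5 and -1.68 without control 2, and Ptgds 0.09 without knockout 7 and 0.54 without knockout 9. The CreER value of Ptgfr ran from -1.66 to -1.17. At measured values that of Ptgs2 was -1.08, against 0.04 with normexp. Its CreER knockout signal was not well above background, so neither value is read as a fold. The Six2Cre value of Ptgs2 was -0.26 with normexp, against -1.09. At signals this dim the normexp offset draws differences toward 0.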
